A study of Danio rerio with 6 samples.

Results

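The lens fibre genes other than crystallins considered here are 10 genes chosen by name for their membrane, cytoskeletal, junctional, proteolytic or regulatory roles in the lens. The table deposited for the series lists 9 of them among its 23025 genes, and *bfsp1* is not analysed here. They were compared in hindbrain RNA of zebrafish embryos at 48 hpf (hours post fertilization), which were either homozygous for a *gas6* mutation (*gas6*-/-) or wildtype controls. *gas6* encodes a secreted ligand of the TAM receptor tyrosine kinases and was mutated with CRISPR/Cas9 at its start codon, giving frameshift alleles from 1 founder, and which allele was sequenced is not given in the sources used here. Embryos of both genotypes carried the *olig2:EGFP* transgene, in which *olig2* regulatory sequence drives green fluorescent protein, and this signal guided the dissection. The mutants came from a homozygous *gas6* line carrying this transgene, and the controls from the transgenic line without the mutation. Differences between these lines cannot be told apart from the effect of the mutation. Each of the 3 libraries per genotype came from a pool of hindbrains, and nothing in the labels says whether the pools came from separate clutches, so that p-values measure the spread between these libraries only.

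The vertebrate lens is an epithelial sheet over a mass of elongated fibre cells. Fibre cells fill with crystallins, lose their nuclei and organelles, and are held together and supplied through a specialised set of membrane proteins, gap junctions and beaded filaments, which are intermediate filaments particular to the lens. The lens is part of the eye and not of the hindbrain, and the source of these transcripts in the hindbrain samples was not tested. In RNA from pooled tissue, fewer or more cells of a type and less or more RNA per cell cannot be told apart.

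All 9 listed genes rose in *gas6* mutants, against 16.7% of all 20463 genes tested (16.6% fell). Calls rest on a p under 0.05 from the quasi-likelihood test of edgeR, adjusted after Benjamini and Hochberg over all genes tested. Each of the 9 rose by more than 2-fold, which held for 6.06% of all tested genes. The log2 fold change had a median of 4.87 over the 9 genes and of 0.02 over all tested genes, and ranged from 2.49 for *foxe3* to 7.14 for *capn2l*. The lowest mutant library was above the highest wildtype library for each of the 9 genes, as it was for 24.8% of all tested genes (49.0% did not overlap in either direction). None of the 9 reached the count minimum in all 3 wildtype libraries, so each entered the test through its level in the mutants, and these counts over the 9 describe the genes and are no independent support for a difference. Levels are given in CPM, counts relative to the TMM-scaled library size, and means carry the SD of the 3 libraries.

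**Figure D1:**
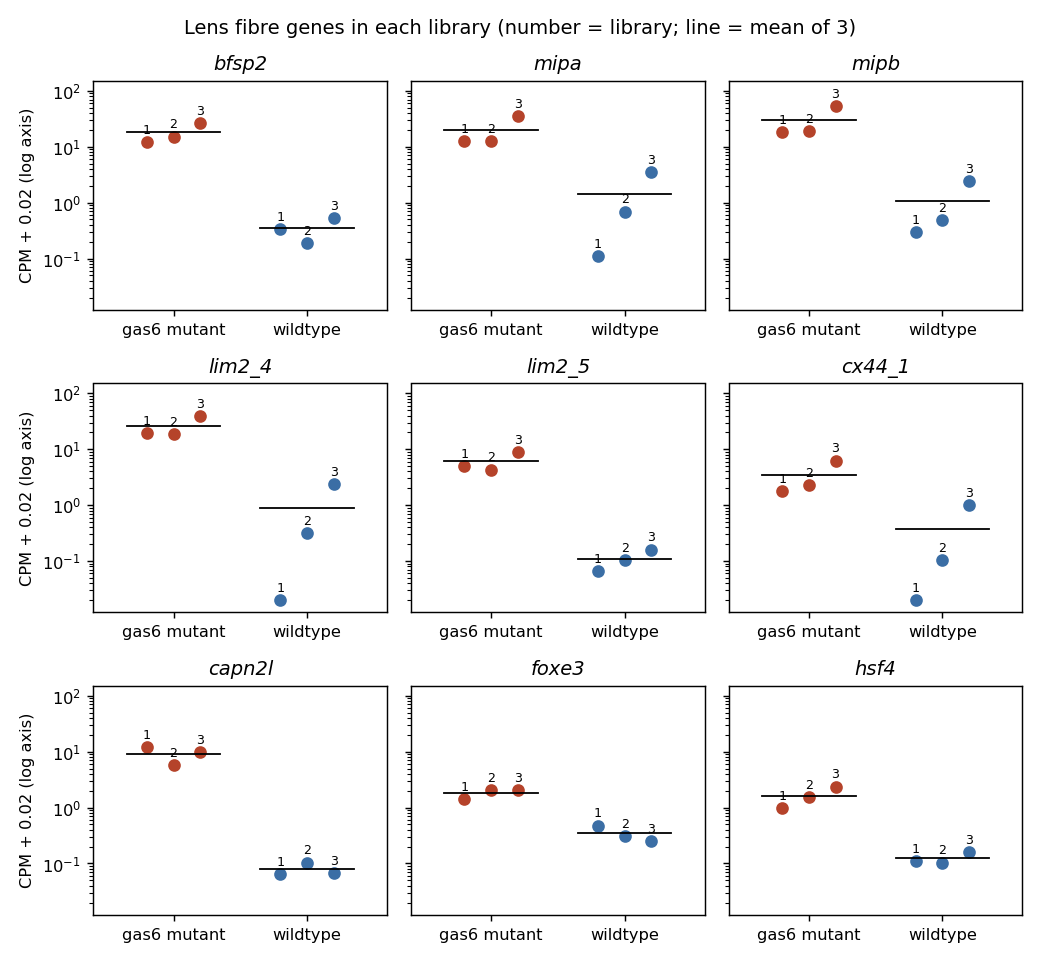
CPM + 0.02 on a log axis of each of the 9 genes in the 3 *gas6* mutant libraries (left) and the 3 wildtype libraries (right), numbered by library, with a line at the mean. The genotypes are apart in every panel, and wildtype library 3 stands above the other wildtype libraries for *mipa*, *mipb*, *lim2_4* and *cx44_1*.

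The libraries were first examined as a whole. Total estimated counts were between 18376627 and 27025868, and no batch was named. *gas6* itself was at 5.01 CPM ± 0.674 in mutants and 39.1 CPM ± 3.26 in wildtype (log2 fold change -2.97, adjusted p = 7.24e-08), in keeping with the labels of all 6 libraries. Markers of the labelled tissue were present: 8 of 8 hindbrain genes were listed, summing to between 688 and 765 CPM in mutants and between 829 and 1020 CPM in wildtype, and 5 of them fell. Of the 43 lens crystallins listed, 34 were tested and all 34 rose, but 31 of these reached the count minimum through the mutants alone, so this count is no independent support either. The 3 that reached it in every wildtype library were *cryabb*, *cryba1l1* and *cryba2b*, with log2 fold changes of 1.2, 5.79 and 5.03 (7.15 for *cryba1l1* and 5.84 for *cryba2b* without wildtype library 3). Among the 9 not tested, *crybb3* had 23 counts in mutants and 21 in wildtype, and *crygs1* had 21 in mutants and 35 in wildtype. All 43 crystallins gave a sum of 1630 to 3530 CPM in mutants against 5.47 to 81.7 CPM in wildtype. *crygm2d11*, *crygm2d15*, *crygm2f* and *crygmxl1* were at 0 in every wildtype library. Of 16 listed photoreceptor genes, 7 were tested and 5 rose, where 16.7% of all tested genes rose. The 16 summed to 44.2 to 75.3 CPM in mutants and 4.92 to 9.79 CPM in wildtype. Most of the mutant sum was *crx*, at 55.4, 54.2 and 30.4 CPM. *arr3a* and *gngt2b* were at 0 in every wildtype library. Lower in mutants were *pde6c* (mean 0.672 against 1.09 CPM) and *opn1sw2* (57 against 61 counts), neither called. So were *GUCA1A* (7 against 15 counts) and *gnat2* (11 against 17 counts), neither tested. Of the 5 that rose, only *crx* reached the count minimum in every wildtype library, so this count is no independent support either. Of 4 genes of retinal progenitors and bipolar cells, 2 rose (53.1 to 60.2 CPM in mutants, 18.3 to 26.8 CPM in wildtype). Of 9 tested forebrain genes, 5 rose (124 to 146 CPM in mutants, 89.5 to 109 CPM in wildtype). Of these 5, *eomesa* reached the count minimum through the mutants alone. Of 9 genes of retinal pigment epithelium and melanophores, 6 fell and 1 rose (937 to 1070 CPM in mutants, 1570 to 2060 CPM in wildtype). Those that fell were *dct*, *oca2*, *pmela*, *slc24a5*, *tyr* and *tyrp1b*. *rpe65a* rose (log2 fold change 0.99), and *rlbp1b* (0.54) and *rgra* (0.27) were not called. Sums overlapped between genotypes for epidermis and cornea (1 of 8 genes rose), erythrocytes (2 rose and 1 fell of 5), neurons (1 of 3 rose) and skeletal muscle. For skeletal muscle 0 of 6 genes passed by edgeR, 1 had an unadjusted p under 0.05, and 0 passed by DESeq2. All these marker counts stand beside 16.7% of all tested genes that rose and 16.6% that fell. Crystallins and some of the retina and forebrain markers thus moved with the genotype beside each gene described here. Others, such as *pde6c*, *rx1*, *foxg1a* and *dlx2a*, were not called. The part of tissue content in these results was not tested.

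*bfsp2* encodes phakinin, which with filensin, the product of *bfsp1*, builds the beaded filament. Its level was 12.2, 15.2 and 26.9 CPM in the mutant libraries (241, 426 and 743 counts), against 0.319, 0.168 and 0.513 CPM in the wildtype libraries (7, 4 and 11 counts). Every mutant library was thus more than 20 times above the highest wildtype library (23.8-fold for the lowest one). The log2 fold change was 5.77 (SE 0.394, adjusted p = 1.37e-06), and it stayed between 5.37 and 6.20 when any 1 library was left out.

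*mipa* and *mipb* are the zebrafish copies of the gene for the major intrinsic protein of fibre membranes, a water channel of the aquaporin family. *mipa* was at 12.5, 12.5 and 35.5 CPM in the mutant libraries and at 0.0911, 0.672 and 3.50 CPM in the wildtype libraries. *mipb* was at 18.4, 19.1 and 53.1 CPM in the mutant libraries, against 0.273, 0.462 and 2.42 CPM in the wildtype libraries. For both copies mutant library 3 was the highest of the mutants by more than 2-fold, and wildtype library 3 the highest of the wildtype. The log2 fold change was 3.85 for *mipa* (SE 0.652, adjusted p = 0.000959) and 4.87 for *mipb* (SE 0.583, adjusted p = 9.32e-05), and their 95% intervals, from 2.43 to 5.27 and from 3.60 to 6.13, overlap. Without wildtype library 3 the values were 5.67 for *mipa* and 6.32 for *mipb*, and without mutant library 3 they were 3.15 and 4.17. The estimated counts of both copies were not whole in every library, as happens where RSEM divides reads among similar sequences, and the part of this in their values was not tested.

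*lim2_4* and *lim2_5* belong to the family of *LIM2*, which encodes an intrinsic membrane protein of the fibre cell. The level of *lim2_4* was 19.3, 18.4 and 38.9 CPM in the mutant libraries. In the wildtype libraries it was 0, 0.294 and 2.33 CPM (0, 7 and 50 counts). For the count of 0 in wildtype library 1, the exact 95% counting interval reaches 0.658% of the mean mutant level. A level of 3 counts in that library would be 0.137 CPM. *lim2_5* was at 4.97, 4.29 and 9.01 CPM in the mutant libraries and at 0.0456, 0.084 and 0.14 CPM in the wildtype libraries, where it had 1, 2 and 3 counts. Wildtype library 3 stood apart for *lim2_4* but had only 3 counts of *lim2_5*. The log2 fold change was 4.90 for *lim2_4* (SE 0.612, adjusted p = 0.000126) and 6.02 for *lim2_5* (SE 0.469, adjusted p = 3.6e-06). Without wildtype library 3, which leaves 0 and 7 wildtype counts, that of *lim2_4* was 7.33, while that of *lim2_5* stayed between 5.61 and 6.43 whichever library was left out. Taken from the summed counts, the mutant to wildtype ratio of *lim2_5* was 69.5, with a 95% counting interval of 31.7 to 190 that covers counting error only.

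*cx44_1* is a gap junction gene that RefSeq lists under the name *gja8b*, a lens connexin that couples fibre cells. It was at 1.77, 2.29 and 6.23 CPM in the mutant libraries, against 0, 0.084 and 0.979 CPM in the wildtype libraries (0, 2 and 21 counts). The lowest mutant library was 1.81 times the highest wildtype library, the narrowest gap among the 9 genes. The log2 fold change was 3.32 (SE 0.741, 95% interval 1.71 to 4.93, adjusted p = 0.00513). It was the least secure of the 9, since DESeq2 did not call it (adjusted p = 0.0981 at a log2 fold change of 3.27) and it did not exceed 2-fold beyond its error by edgeR's glmTreat (adjusted p = 0.0662), while adjusted p-values over the 8 alternatives that kept all libraries ranged from 6.48e-05 to 0.0981. The value was 6.15 without wildtype library 3, where the remaining wildtype counts were 0 and 2 and the fitted size depends on the prior count of edgeR, and 2.55 without mutant library 3.

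*capn2l* encodes a calpain, a calcium-dependent cysteine protease. Its estimated counts were 235.98, 159.85 and 273.53 in the mutant libraries, or 12, 5.72 and 9.92 CPM. In the wildtype libraries they were 1.01, 1.69 and 1.00, or 0.0456, 0.084 and 0.0466 CPM. This gene had the lowest wildtype level and was the only one of the 9 that peaked in mutant library 1. The log2 fold change was 7.14 (SE 0.455, adjusted p = 8.5e-07), and the ratio of summed counts was 149 (95% counting interval 58.1 to 550). With so few wildtype counts the fitted size depends on the prior count, and its estimated counts were not whole either.

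The remaining genes are regulators. *foxe3*, a forkhead transcription factor of the lens epithelium, was at 1.42, 2.04 and 2.06 CPM in the mutant libraries, against 0.456, 0.294 and 0.233 CPM in the wildtype libraries. *hsf4*, a heat shock factor required for fibre differentiation in mammals, was at 0.963, 1.54 and 2.35 CPM in the mutant libraries and at 0.0911, 0.084 and 0.14 CPM in the wildtype libraries. The genotypes did not overlap for either gene, but the log2 fold change of *foxe3*, at 2.49 (SE 0.338, 95% interval 1.75 to 3.22, adjusted p = 0.000223), was the smallest of the 9. That of *hsf4* was 3.92 (SE 0.494, adjusted p = 0.000133), from 7 wildtype counts in all, and its ratio of summed counts was 16.2 (95% counting interval 7.63 to 41.1). Both stayed on the same side of the threshold under every alternative tried.

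**Figure D2:**
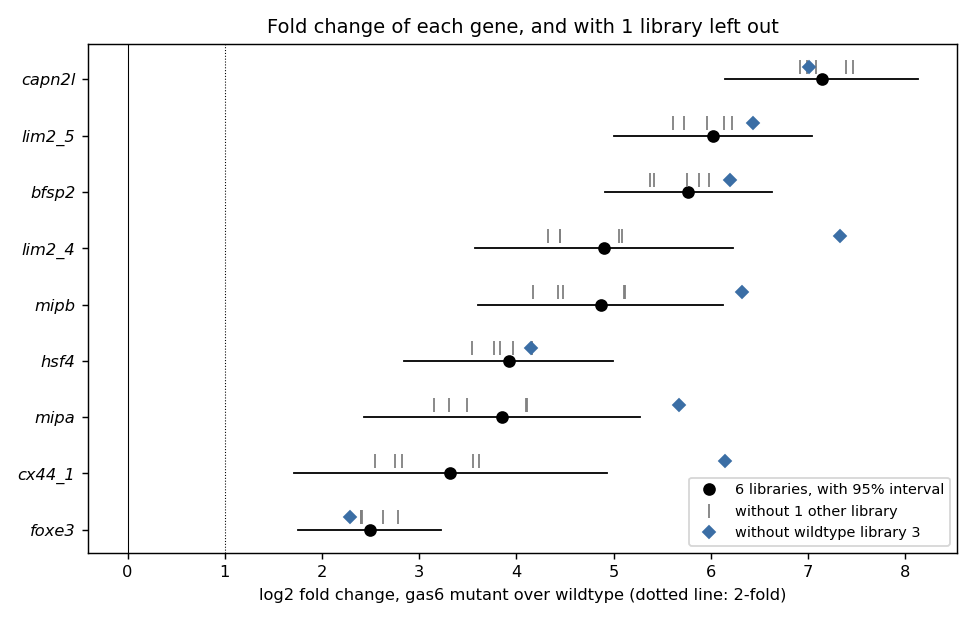
Log2 fold change of each of the 9 genes, *gas6* mutant over wildtype, with its 95% interval (black), and the values when wildtype library 3 (blue diamond) or 1 of the other libraries (grey bars) was left out. *capn2l* is at the top with 7.14 and *foxe3* at the bottom with 2.49, and the blue diamond lies beyond the interval for *lim2_4*, *mipb*, *mipa* and *cx44_1*.

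In order of fold change the genes were *capn2l*, *lim2_5*, *bfsp2*, *lim2_4*, *mipb*, *hsf4*, *mipa*, *cx44_1* and *foxe3*. The 95% intervals of every neighbouring pair in this order overlap, whereas that of *foxe3*, which ends at 3.22, lies below those of *capn2l*, *lim2_5*, *bfsp2*, *lim2_4* and *mipb*, the lowest of which begins at 3.57. That of *capn2l*, which begins at 6.15, lies above those of *hsf4*, *mipa*, *cx44_1* and *foxe3*. It also begins just above where that of *mipb* ends, at 6.13, but these 2 genes are not taken as told apart on so narrow a gap. The *capn2l* interval rests on 1.01, 1.69 and 1.0 wildtype counts, and its ratio of summed counts had a counting interval of 58.1 to 550. Differences between genes were not tested.

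The wildtype libraries were then examined one by one, since each held some of these transcripts. The 9 genes summed to 1646, 2265.6 and 5084.5 counts in the mutant libraries, against 29, 52.7 and 220.9 counts in the wildtype libraries. Wildtype library 3 gave 92.1% of the wildtype CPM of *cx44_1*, 88.8% of that of *lim2_4*, 82.1% of that of *mipa* and 76.7% of that of *mipb*, and 81.0% of that of the summed crystallins. Its share was 51.3% for *bfsp2*, 51.9% for *lim2_5*, 44.4% for *hsf4*, 28.5% for *capn2l* and 23.7% for *foxe3*. Those of *lim2_5*, *hsf4* and *capn2l* rest on 6, 7 and 3.7 wildtype counts in all and are poorly determined. The share of this library was not even over the genes, and was lowest for *foxe3*, with 5 of 22 wildtype counts.

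Expressed as a percent of the mean mutant level, wildtype library 3 reached 28.5% for *cx44_1* (exact 95% counting interval 17.7 to 43.6) and 17.3% for *mipa* (13.6 to 21.7). It reached 9.12% for *lim2_4* (6.77 to 12) and 8.01% for *mipb* (6 to 10.5), but 2.83% for *bfsp2* (1.41 to 5.06) and 0.507% for *capn2l* (0.0128 to 2.82). The summed crystallins were at 3.34% (3.19 to 3.50), below the intervals of the first 4 genes and within that of *bfsp2*. *foxe3* was at 24.8%, 16.0% and 12.7% of the mutant mean in wildtype libraries 1, 2 and 3, with intervals that overlap (11.9 to 45.5, 6.42 to 32.9 and 4.11 to 29.6). An excess in wildtype library 3 was not detectable for this gene at this depth. These intervals cover counting error only and compare libraries, not genotypes.

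**Figure D3:**
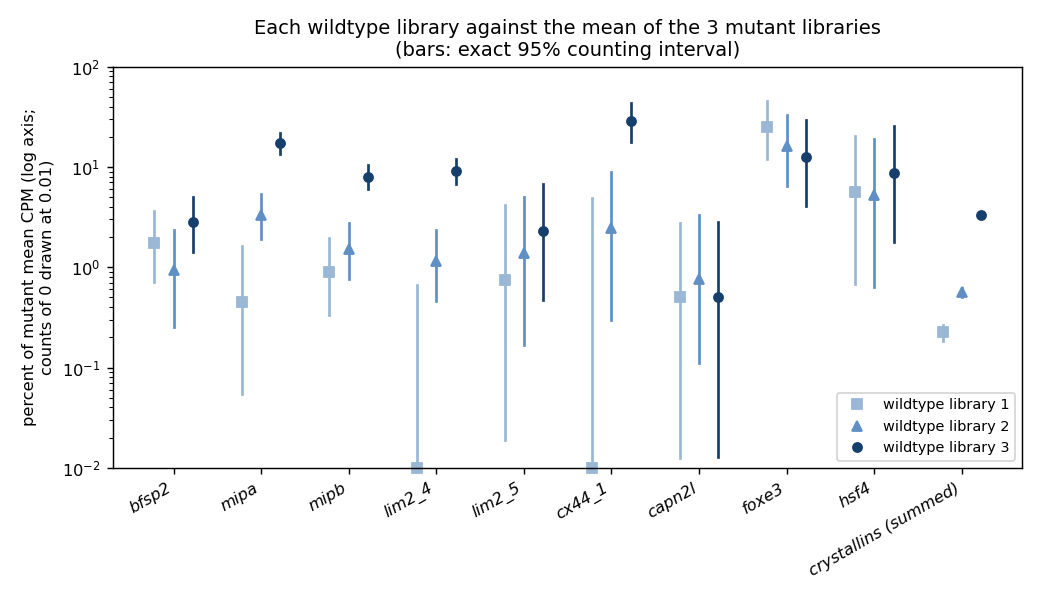
Level of each gene in each wildtype library as a percent of the mean of the 3 mutant libraries (log axis), with exact 95% counting intervals; counts of 0 are drawn at 0.01. Wildtype library 3 is the highest for *cx44_1* (28.5%), *mipa* (17.3%), *lim2_4* (9.12%) and *mipb* (8.01%), whereas *foxe3* is at 12.7% to 24.8% in all 3.

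The make-up of the counts of the 9 genes was compared next. *mipa* took 14.9%, 15.4% and 19.3% of these counts in the mutant libraries, and 33.9% in wildtype library 3 (exact binomial 95% interval 27.7 to 40.6). *cx44_1* took 2.13%, 2.82% and 3.38% in the mutant libraries and 9.50% in wildtype library 3 (5.98 to 14.2). Both shares were higher in wildtype library 3 than in any mutant library. *bfsp2* took 14.6%, 18.8% and 14.6% in the mutant libraries and 4.98% in wildtype library 3 (2.51 to 8.73), and *capn2l* took 14.3%, 7.06% and 5.39% in the mutant libraries and 0.452% in wildtype library 3 (0.0115 to 2.50). *lim2_4* hardly differed, with 23.1%, 22.7% and 21.2% in the mutant libraries and 22.6% in wildtype library 3 (17.3 to 28.7). Wildtype libraries 1 and 2 held only 29 and 53 such counts after rounding, and in wildtype library 1 *foxe3* alone took 34.5% (17.9 to 54.3). The genes singled out in this comparison were chosen after their values were seen.

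**Figure D4:**
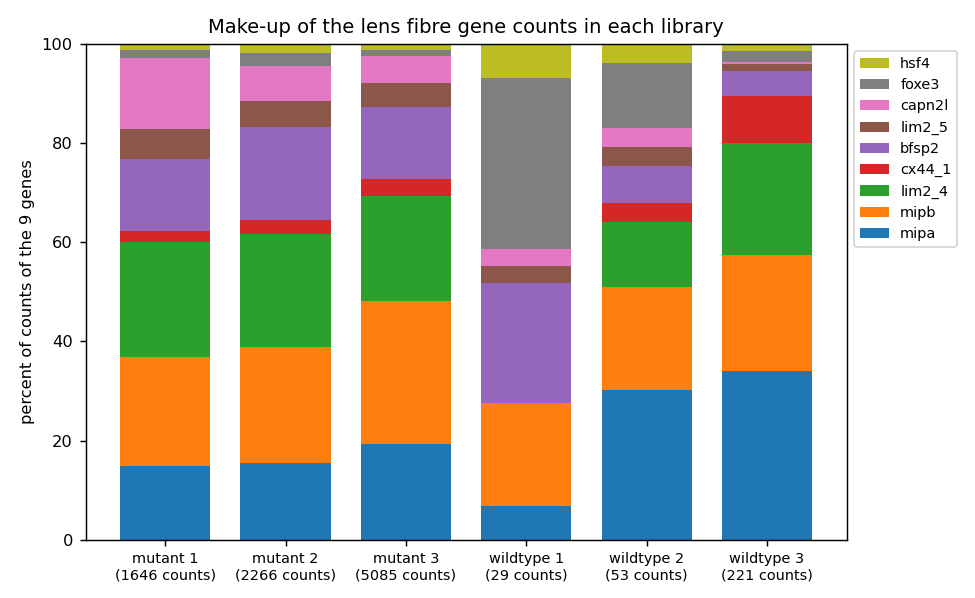
Percent of the summed counts of the 9 genes taken by each gene, in the 3 *gas6* mutant libraries and the 3 wildtype libraries, with the summed count under each bar. *mipa* fills 14.9% to 19.3% of the mutant bars and 33.9% of the bar of wildtype library 3, and *foxe3* fills 34.5% of the bar of wildtype library 1, which rests on 29 counts.

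Among the mutant libraries the genes also varied. Mutant library 3 was the highest for 8 of the 9 genes. It exceeded mutant library 1 by 3.51-fold for *cx44_1*, by 2.90-fold for *mipb* and by 2.85-fold for *mipa*, against 2.16-fold for the summed crystallins and 1.45-fold for *foxe3*. *capn2l* was the exception, with mutant library 3 at 0.829 of mutant library 1. The sum of the photoreceptor genes did not share this order, with 75.3, 72.6 and 44.2 CPM in mutant libraries 1, 2 and 3. Most of this sum was *crx*, at 55.4, 54.2 and 30.4 CPM. Some photoreceptor genes at low levels, such as *arr3a* and *pde6h*, were highest in mutant library 3. Skeletal muscle genes were also highest in mutant library 3, with sums of 10800, 12300 and 21100 CPM in mutant libraries 1, 2 and 3. The excess of mutant library 3 was thus not particular to lens genes.

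The 9 genes were set against the crystallins, the proteins that fill the fibre cell. Per 1000 crystallin counts there were 51.1, 37.3 and 52.2 counts of the 9 genes in the mutant libraries, against 242, 162 and 126 in the wildtype libraries. The ratio of the summed genes was higher in each wildtype library than in any mutant library. This did not hold gene by gene. In wildtype library 3 the ratios of *bfsp2*, *lim2_5* (1.71) and *capn2l* (0.571) were below every mutant library, whereas those of the other genes were above. In wildtype library 1 *foxe3* alone gave 83.3 of the 242. The counting intervals were wide in wildtype (162 to 347, 122 to 213 and 110 to 144) and did not reach the mutant values, the highest of which ended at 53.6. They leave out the counting error of the crystallins, which had only 120 counts in wildtype library 1. *bfsp2* had 7.48, 7.02 and 7.62 counts per 1000 crystallin counts in the mutant libraries, against 58.3 (23.5 to 120), 12.3 (3.34 to 31.4) and 6.28 (3.14 to 11.2) in wildtype libraries 1, 2 and 3. Its ratio was thus above the mutants in wildtype library 1, from 7 counts, while the intervals of wildtype libraries 2 and 3 covered the mutant values. Most members of the *crygm2d* crystallin family are near-identical, so their counts are better read as a sum.

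To place the 9 genes among other lens genes, a list of 28 further non-crystallin genes with known roles in the lens was examined. Of these, 18 rose and 2 fell, where 16.7% of all tested genes rose and 16.6% fell. The median log2 fold change of the 28 genes was 0.64, against 0.02 over all tested genes. The largest changes were those of *dnase1l3l* (listed by RefSeq as *dnase1l1l*, a nuclease that removes fibre cell DNA in zebrafish), *lgsn*, which encodes lengsin, the lactase-like genes *lctla* and *lctlb*, the calpain gene *capn3a*, and *lim2_3*. Their log2 fold changes were 6.80, 6.58, 5.58, 5.05, 5.57 and 4.86 in this order, each with an adjusted p of at most 0.000135. All 6 are among the 11 of the 28 genes that did not reach the count minimum in every wildtype library. All of these 11 but *lim2_2* rose. The 6 were tested through their level in the mutants. Their p-values and the count of 18 are therefore no independent support. *capn3a* was at 24.3, 28.9 and 41.2 CPM in the mutant libraries, against 0.182, 0.21 and 1.63 CPM in the wildtype libraries. *dnase1l3l* had 33, 46 and 92 counts in the mutant libraries and 1, 0 and 0 in wildtype, a ratio of 153 with a counting interval of 27 to 6060. Without wildtype library 3 the values of *capn3a*, *lctla*, *lctlb* and *lim2_3* were 7.28, 6.70, 5.91 and 7.49. Without wildtype library 2 they were 4.96 for *lctla* and 8.06 for *lgsn*, and without wildtype library 1 that of *dnase1l3l* was 8.76. Few or no wildtype counts remain in these fits, and the sizes then depend on the prior count.

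The list also holds regulators that are transcribed in the brain as well, and these were uneven. *six3a* and *six3b*, homeobox genes of the eye field and forebrain that are named here after their values were seen, had log2 fold changes of 2.14 and 2.18 (adjusted p = 0.0006 and 0.00104). *six3b* was at 7.96, 9.80 and 8.62 CPM in the mutant libraries, against 0.729, 3.65 and 1.35 CPM in the wildtype libraries. Wildtype library 2 was the highest of the wildtype for both, and without it the values were 2.89 and 3.06. *pitx3*, a homeobox gene of the lens, rose by 1.01 on the log2 scale (adjusted p = 0.00115). *prox1a*, which acts in fibre elongation, had a log2 fold change of 0.45 (adjusted p = 0.0104), and the call was lost without mutant library 2 (0.34, adjusted p = 0.0712). The eye genes *pax6b* and *pax6a* moved in opposite directions, with log2 fold changes of 0.51 and -0.44 (adjusted p = 0.019 and 0.0173). The call of *pax6b* was lost without mutant library 1, mutant library 2 or wildtype library 3 (adjusted p = 0.0823, 0.0581 and 0.0737). That of *pax6a* was lost without mutant library 2 or 3 (adjusted p = 0.051 and 0.0653). *maf*, a transcription factor of fibre cells, did not pass (0.30, adjusted p = 0.169). *epha2a*, a receptor that organises lens cells in mammals, fell by 1.48 (adjusted p = 1.64e-06), to 70.0, 65.5 and 70.1 CPM in the mutant libraries against 213, 174 and 188 CPM in the wildtype libraries, and is named here after its values were seen.

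**Figure D5:**
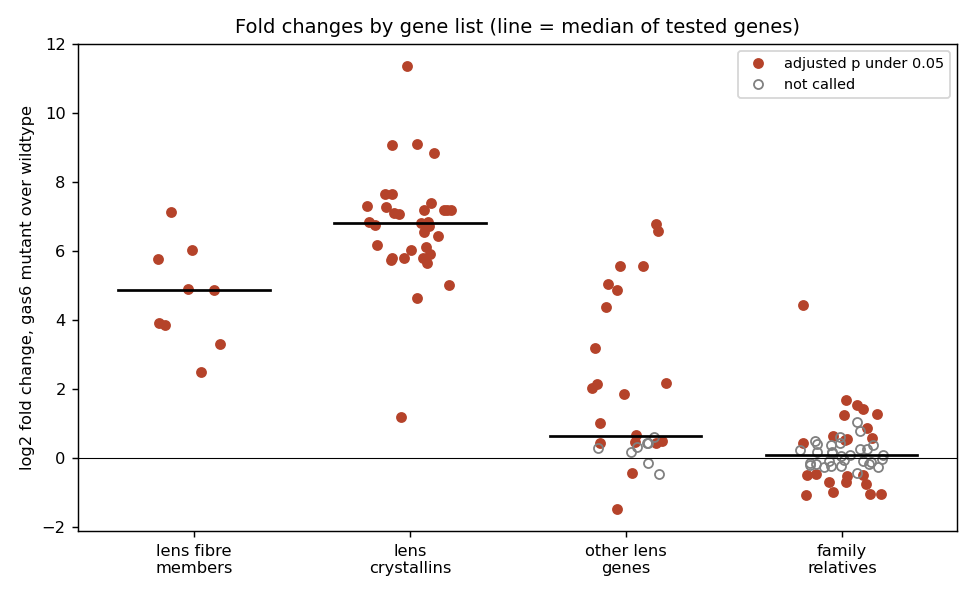
Log2 fold change, *gas6* mutant over wildtype, of tested genes among the 9 lens fibre genes, the crystallins, the further lens genes and the relatives of the 9 genes in their families (filled: adjusted p under 0.05; open: not called), with a line at each median. The medians are 4.87, 6.82, 0.64 and 0.09.

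Finally, relatives of the 9 genes were examined to see whether whole families moved. Of 54 tested aquaporins, connexins, calpains, heat shock factors, intermediate filament genes and other relatives, 12 rose and 11 fell, where 33.3% of all tested genes were called in either direction, and the median log2 fold change was 0.09. By family, 6 of 17 connexins rose and 1 fell, 2 of 11 calpains and 2 of 7 aquaporins rose and 1 aquaporin fell, and of 2 heat shock factors *hsf2* fell (-0.68). Over all tested genes 16.7% rose and 16.6% fell, and differences between families were not tested. Connexins and calpains on the list of further lens genes were left out of these counts. Of those, *gja3*, *cx50_5* and *capn3a* rose (log2 fold changes 1.85, 2.04 and 5.57, adjusted p = 0.00571, 0.00452 and 4.71e-06). None of them reached the count minimum in every wildtype library. *capn3b* was not called (-0.13, adjusted p = 0.64). Of 12 intermediate filament genes, 8 fell and 1 rose, with a median of -0.48. Those that fell include *gfap*, *vim* and *nes*, filament genes of glia and neural progenitors, with log2 fold changes of -0.99, -1.04 and -1.05 (adjusted p = 3.6e-05, 0.000211 and 0.00018). These genes and *hsf2* are named after their values were seen. Among the 54 relatives, the 6 largest changes began with *cx23* (4.43, adjusted p = 0.000152), *capn8* (1.70, adjusted p = 0.000125) and *cx32_3* (1.55, adjusted p = 0.0164). Next came *desmb* (1.42, adjusted p = 0.0265), *foxe1* (1.27, adjusted p = 0.00658) and *cx34_4* (1.26, adjusted p = 0.00594). *cx23*, a connexin gene, was at 2.74, 4.18 and 6.81 CPM in the mutant libraries and at 0, 0.126 and 0.513 CPM in the wildtype libraries, and its value was 6.03 without wildtype library 3. *cx32_3* lost its call without mutant library 1, mutant library 2 or wildtype library 3 (adjusted p = 0.0555, 0.0605 and 0.0658). *cx23*, *cx32_3* and *desmb* did not reach the count minimum in every wildtype library. *desmb* was not called by DESeq2 with all libraries (adjusted p = 0.129), and lost its call without mutant library 2 or 3 or wildtype library 2 or 3 (adjusted p = 0.0564, 0.116, 0.0623 and 0.0972).

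Within families the values were uneven. Of the other *lim2* genes, also chosen after their values were seen, *lim2_1* was at 5.68, 6.33 and 10.6 CPM in the mutant libraries and at 0.0456, 0.042 and 1.03 CPM in the wildtype libraries (log2 fold change 4.38, adjusted p = 0.000178, and 7.27 without wildtype library 3). *lim2_2* overlapped between genotypes, at 0.456, 0.536 and 0.615 CPM in the mutant libraries and 0.501, 0.378 and 0.559 CPM in the wildtype libraries (0.18, SE 0.352, adjusted p = 0.722). Of the calpains closest to *capn2l* in name, *capn2b* had a log2 fold change of 0.59 (adjusted p = 0.00664) and *capn2a* of 0.05 (SE 0.104, adjusted p = 0.734).

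The genes whose pattern over the 6 libraries was most like the mean of the 9 genes were then listed, among 18294 genes with a mean of at least 1 CPM. Of the 20 most alike, 6 were crystallins, which made up 34 of all 20463 genes tested. Of these 34, 31 reached the count minimum through the mutants alone, as did the 9 genes. The count of 6 is therefore no independent support. With crystallins left out, the first 10 were *zgc:110053*, *lim2_3*, *lctlb*, *dgkaa*, *lim2_1*, *cald1l*, *mmp14a*, *plcd4a*, *si:ch211-274p24_2* and *ctgfb*, with Pearson correlations from 0.9993 to 0.9945 of log2(CPM + 1). The points of these correlations are 6 libraries in 2 genotypes, and mutant library 3 was the highest mutant library for 8 of the 9 genes. The values are therefore a description. Likeness in pattern did not mean likeness in size: the log2 fold change was 4.08 for *zgc:110053*, 0.46 for *mmp14a* and 0.41 for *dgkaa*. Without wildtype library 3 that of *zgc:110053* was 4.98, and the call of *dgkaa* was lost without mutant library 2 (adjusted p = 0.0524).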

How the data were processed

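RNA was isolated from pools of dissected hindbrains and sequenced as 3 stranded mRNA libraries per genotype. The authors deposited 1 table of estimated counts per gene, not normalized. The submitters' processing notes name RSEM 1.2.28, FastQC and DESeq2 and the builds GRCz10 and danRer7, without the role of each build; no coordinates are given. The lowest total of a listed gene was 11, so rarer genes had been removed. Columns with the authors' own fold changes and adjusted p-values were not used. Samples were grouped by title.

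Estimated counts were rounded. edgeR 4.0.16 (R 4.3.3) was run with filterByExpr (minimum count 10, minimum total 15; 20463 genes kept, 2562 removed), TMM and glmQLFTest on genotype alone, with Benjamini-Hochberg adjustment over all genes tested and a threshold of 0.05. With 4 residual degrees of freedom, SEs of log2 fold changes had a median of 0.154; they were derived from the F statistic, and the prior count was 0.125. Counting intervals are exact (SciPy 1.17.1). Alternatives were other scalings, no filter, DESeq2 1.42.0, glmTreat, a replicate block, a limit of 0.01 and leaving out each library. The edgeR step was run on simulated data whose changes were smaller than the largest seen here, so it is no check of those. No library pair within a genotype was a duplicate: chi-square values divided by their degrees of freedom were 6.87 to 25.7. Pairs across genotypes were not examined.

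Members and lists were chosen with earlier results of these data known. Lists covered further lens genes, family relatives, crystallins, photoreceptors, retinal progenitors and bipolar cells, pigment cells, epidermis and cornea, skeletal muscle, erythrocytes, forebrain, hindbrain and neurons. All members were named, with the 6 largest called changes of the further lens genes and of the relatives, the regulators *pitx3*, *prox1a*, *maf*, *pax6a* and *pax6b*, and the 10 genes most alike in pattern. Crystallins and the 34 connexin and calpain relatives were taken from the table by name pattern, and so are found by construction. Other names were matched exactly, apart from case, or through RefSeq synonyms (GRCz12tu), which found 28 of 31 further lens genes (3 by synonym) and 30 of the 36 remaining relatives. Promoter sequences were not analysed here.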

Additional observations from a re-analysis of the deposited data

How the results depend on the processing

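All 9 lens fibre genes kept their direction under the 14 alternatives, and between 8 and 9 of them passed, *cx44_1* being lost under DESeq2 and glmTreat; with 1 library left out all 9 passed each time. *gas6* passed throughout (log2 fold change from -3.04 to -2.86 with 1 library left out). Of the further lens genes, glmTreat called 11 in place of 20, and of the relatives it called 2 in place of 23, since it tests for a change of over 2-fold. A limit of 0.01 called 14 relatives. Over all genes, glmTreat called 639 and a limit of 0.01 called 3831, in place of 6813. With 1 library left out the calls ranged from 16 to 22 for the further lens genes, from 17 to 26 for the relatives and from 4661 to 6919 for all genes. *capn2a*, which never passed, ranged from -0.02 without wildtype library 1 to 0.10 without mutant library 2. Replicate numbers did not pair the libraries (correlations of deviations for same-numbered libraries from -0.0587 to 0.0376), and a replicate block left 9 of 9 lens fibre genes called and 6359 genes in all; *desmb* lost its call (adjusted p = 0.0549). Wildtype counts that sum to under 10 limit the precision of the fold changes of *capn2l*, *lim2_5* and *hsf4*.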
